A study of Homo sapiens with 3 samples.

Results

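A stretch of 900 kb on chromosome 12 holding BHLHE41, SSPN and ITPR2 contained 8 of the 2551 CRY1 peaks called in C4-2 cells. These 8 were chosen by position: every peak of the list whose summit, the base of highest read pileup, lay between 26.15 and 27.05 Mb of that chromosome in hg19 (GRCh37). The locus was picked with the positions and strengths of its peaks known, so what follows is a description with no test. CRY1 was mapped by chromatin immunoprecipitation and sequencing (ChIP-seq) in C4-2, an androgen receptor-positive human prostate cancer line derived from LNCaP that grows without androgen. The data comprise 2 CRY1 immunoprecipitates (IP) and 1 input library of chromatin without immunoprecipitation, all labelled Veh with no agent named, from cells kept in hormone-proficient medium during the day before harvest. Peaks were called by the authors on both replicates combined, so no peak has a replicate error, and the single cell line limits the result to that model.

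CRY1 does not read DNA sequence itself. In the circadian clock, CLOCK and BMAL1 form a dimer that binds the E-box, CACGTG, and activates transcription, and CRY proteins together with PER proteins bind to that dimer and repress it. BHLHE41, also called DEC2, is a basic helix-loop-helix repressor that occupies E-boxes directly, thereby forming a further negative arm of the clock, and its own gene is a target of CLOCK and BMAL1. SSPN encodes sarcospan, a membrane protein of the dystrophin-associated complex, and ITPR2 encodes the type 2 inositol trisphosphate receptor, which releases calcium from the endoplasmic reticulum.

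BHLHE41 and the start of SSPN lie together at one end of the locus. BHLHE41 (ENSG00000123095) occupies chr12:26272963-26277970 on the minus strand, and SSPN (ENSG00000123096) occupies chr12:26274924-26452223 on the plus strand, so that the first SSPN start site lies inside BHLHE41. ITPR2 (ENSG00000123104) fills most of the other end, chr12:26488285-26986127 on the minus strand. The peaks formed 3 clusters. An intergenic peak lay 7495 bp upstream of the first SSPN start site and 5534 bp past the 3′ end of BHLHE41. Apart from another start inside BHLHE41, the remaining SSPN transcripts start farther from that peak, 9.93 to 70.6 kb right of the BHLHE41 start site. A group of 4 peaks lay at and upstream of the BHLHE41 start site, and 3 peaks lay deep within ITPR2.

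The summit sequences that carry these sites are given here from the hg19 plus strand, with 75 bases on each side of the summit for the strongest pair and 50 on each side for the others. Capitals mark CACGTG and the related hexamers CACATG, which reads CATGTG on the other strand, and CACGTT, the E′-box of several clock genes, which reads AACGTG.
Intergenic site, chr12:26267354-26267504: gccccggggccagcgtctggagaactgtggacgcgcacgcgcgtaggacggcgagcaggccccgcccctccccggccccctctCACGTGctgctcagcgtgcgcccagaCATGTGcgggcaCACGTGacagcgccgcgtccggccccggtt
BHLHE41 promoter, chr12:26277973-26278073: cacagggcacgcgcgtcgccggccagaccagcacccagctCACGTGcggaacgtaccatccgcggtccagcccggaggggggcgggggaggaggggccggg
0.4 kb upstream of BHLHE41, chr12:26278277-26278377: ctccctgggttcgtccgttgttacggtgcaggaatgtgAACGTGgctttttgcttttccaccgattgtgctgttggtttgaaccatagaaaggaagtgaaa
ITPR2 intron, weak site, chr12:26676087-26676187: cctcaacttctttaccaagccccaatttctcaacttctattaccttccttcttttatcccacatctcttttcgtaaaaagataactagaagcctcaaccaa
ITPR2 intron, strong site, chr12:26676860-26677010: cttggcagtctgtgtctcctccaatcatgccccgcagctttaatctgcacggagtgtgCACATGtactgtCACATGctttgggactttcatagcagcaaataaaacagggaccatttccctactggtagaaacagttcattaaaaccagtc
ITPR2 exon, chr12:26752158-26752258: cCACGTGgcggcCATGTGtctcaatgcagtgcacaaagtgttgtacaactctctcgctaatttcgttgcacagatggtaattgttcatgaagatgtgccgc
The intergenic site and the strong intronic site are shown as the leading peaks, the promoter and the exon for their E-boxes, and the remaining 2 as weaker neighbours for contrast.

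**Figure D1:**
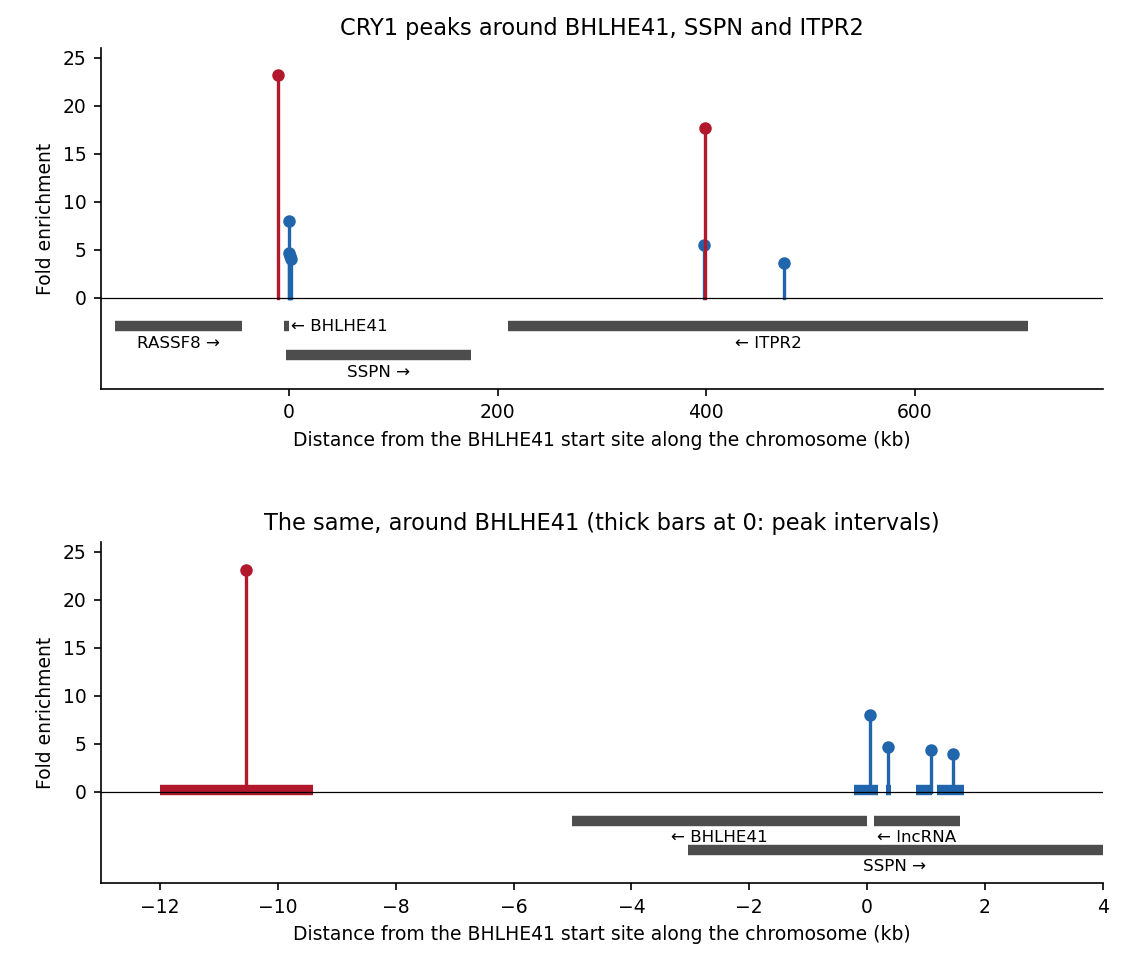
Fold enrichment of each CRY1 peak (vertical axis) against distance from the BHLHE41 start site in kb (horizontal axis), for the whole locus above and the BHLHE41 end below, with genes as dark bars, arrows for strand and red for fold enrichment of 10 or more. The red peaks stand 10.5 kb to the left of that start site, at 23.2, and 398.965 kb to its right, at 17.7, whereas the peak at the BHLHE41 promoter reaches 7.99.

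Binding was strongest away from the promoters. The intergenic peak (chr12:26265961-26268573) reached 23.2 times the local background at its summit (fold enrichment), with 82.4 for −log10 q, which placed it 2nd of the list by fold enrichment and 3rd by −log10 q. The strong ITPR2 peak (chr12:26676318-26677617) reached 17.7 times the background, with 76.6 for −log10 q, ranking 24th and 10th. A fold enrichment of 10 or more was thus found at 2 of 8 locus peaks, and at 8.16% of the list. Among 563 summits over 5 kb from any annotated transcription start site (TSS), the intergenic peak ranked 1st and the strong ITPR2 peak 2nd by fold enrichment, with the next at 15.95. By IP fragments over the summit, counted as described further on, the same peaks ranked 5th and 2nd. Of the 24 peaks in the list at or above 17.7, a limit set by the ITPR2 peak itself, these were the only 2 located more than 5 kb from any annotated TSS. With start sites of protein-coding genes alone, 6 of the 24 were. At the fixed limit of 10, 33 of 208 list peaks (15.9%) lay over 5 kb from any annotated TSS. The intergenic and strong ITPR2 peaks were also the only 2 of the 24 with another such peak within 500 kb. The locus was picked with both peaks known, so their closeness was built into that choice. The summits of these 2 peaks lay 410 kb apart.

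The peak at the BHLHE41 promoter (chr12:26277754-26278166) was of intermediate strength. Its summit lay 53 bp upstream of the TSS of the protein-coding transcript, where the signal was enriched 7.99-fold, with 15.9 for −log10 q. Weaker peaks followed upstream at 357 bp (fold enrichment 4.65), 1080 bp (4.33) and 1454 bp (4.0), with −log10 q values of 4.08, 3.79 and 4.08. These 4 summits spanned 1401 bp. All of them also lay in the first intron of the SSPN transcripts that start inside BHLHE41. The outer ones overlapped a long noncoding gene, ENSG00000256894 (chr12:26278088-26279550, minus strand): its last exon held the summit at 357 bp, its first intron the summit at 1080 bp and its first exon the summit at 1454 bp. The summit at 1080 bp was 33 bp upstream of a TSS of that gene, and the summit at 1454 bp was 126 bp downstream of the other. Position alone does not assign these peaks to BHLHE41, SSPN or the noncoding gene.

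Within ITPR2, the strong peak and a weak companion lay in intron 37 of the 57-exon transcript, an intron of 54986 bp. The companion (chr12:26676069-26676204) was enriched 5.5-fold, with 6.66 for −log10 q and its summit 798 bp from that of the strong peak. The third peak (chr12:26752033-26752253) had its summit in the coding part of exon 30, and was the weakest of the locus at 3.57-fold, with 2.23 for −log10 q. The lowest −log10 q in the whole list was 1.30. None of the 3 was close to the main ITPR2 promoter: the strong summit lay 309 kb downstream of the first ITPR2 start site, and the exonic summit, the nearest of the locus, 234 kb downstream. The TSS nearest to the exonic summit, at 24094 bp, was that of the noncoding gene ENSG00000234428. The strong summit was 28442 bp from its nearest annotated TSS, which belonged to a retained-intron transcript of ITPR2. Summits over 10 kb from any annotated TSS numbered 3 of 8 at the locus, against 14.2% of the list. The strong ITPR2 peak had the highest fold enrichment of the 363 such summits in the list, whose median was 5.14, and was 2nd among them by IP fragments.

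**Figure D2:**
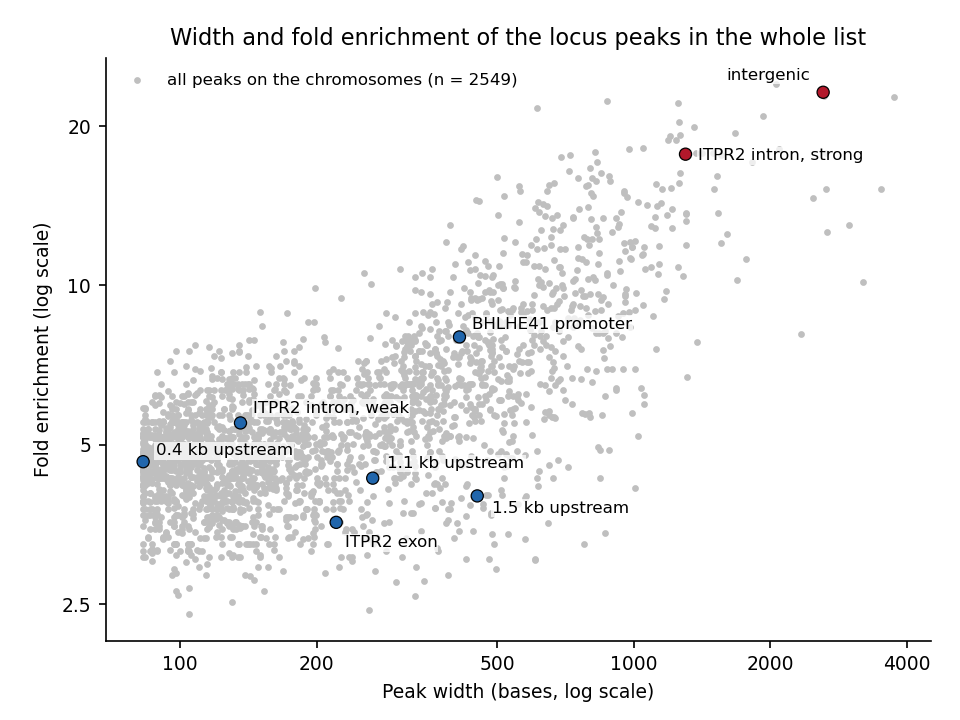
Fold enrichment (vertical, log scale) against peak width in bases (horizontal, log scale) for the 2549 peaks on the chromosomes in grey and the 8 locus peaks in colour, red for fold enrichment of 10 or more. The intergenic and strong ITPR2 peaks lie in the upper right, at widths of 2613 and 1300 bp, and the other 6 lie at 452 bp or below.

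The strongest peaks of the locus were also its widest. The intergenic peak was 2613 bp wide, 9th in the list, and the strong ITPR2 peak 1300 bp, 35th, where 3.18% of list peaks reached 1000 bp. The BHLHE41 promoter peak spanned 413 bp. The peak 1454 bp upstream was wider, at 452 bp, although its fold enrichment was lower. The peak 357 bp upstream was 83 bp wide, the shortest width in the list. The median of the 8 widths was 340 bp, against 181 bp over the list (n = 2549), whereas the median fold enrichment was 5.07 against 5.18.

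Spacing fell into separate scales. Neighbouring summits were 10594 bp apart between the intergenic and promoter peaks, then 304, 723 and 374 bp within the BHLHE41 group. A gap of 396713 bp separated that group from ITPR2, where the intervals were 798 bp and 75273 bp. Another summit within 1 kb was present for 6 of 8 locus summits, against 31.4% of the list. Outside the locus, the nearest summits on chromosome 12 were over 1 Mb away on each side. Empty stretches were common in the list, as the windows counted below show. The nearest summit to the left lay 1165 kb from the intergenic peak (fold enrichment 3.92), and the nearest to the right 1591 kb from the exonic peak (5.0). The locus held 8.89 peaks per Mb, compared with 0.897 on all of chromosome 12 (120 peaks). When the chromosomes were tiled in 3428 windows of 900 kb, 34 windows held 8 or more summits and 2355 held 0. Unlike the tiles, the locus was drawn around peaks already known, so its high density was built into that choice. Merging peaks within 1 kb left 5 at the locus.

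The number of fragments behind each peak was recovered from the deposited values. Fragments here are reads extended to 83 bp by the caller. The study's methods give a longer range for the sheared chromatin, so these are not whole sheared fragments. Fold enrichment and the −log10 p of a peak are both set by the pileup and by the background at the summit, and 1 whole number of IP fragments with 1 background value solved both for each of the 2551 peaks. At the intergenic summit, 148 IP fragments overlapped (95% Poisson interval 125 to 174), and at the strong ITPR2 summit 161 (137 to 188). These intervals overlap, so the order of the leading sites was not resolved by fragment number. The ITPR2 site had the lower fold enrichment with the higher background, its divisor. That background was 4.0 control fragments at the summit itself, whereas the 2.51 at the intergenic site came from a 10 kb window. By IP fragments the ITPR2 peak ranked 13th and the intergenic peak 19th of the list.

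The BHLHE41 promoter summit had 57 fragments (43.2 to 73.9) over a background of 3.0. The other 5 summits had between 28 and 36 fragments, around the list median of 36. The interval at the promoter did not overlap that of the summit 357 bp upstream (28 fragments, 18.6 to 40.5) but overlapped that of the summit 1454 bp upstream (35 fragments, 24.4 to 48.7). The exonic ITPR2 summit had 31 fragments (21.1 to 44) over a background of 4.0. A background of 4.0 or more was found at 3 of the 8 summits and at 25% of the list, and the locus median of 3.0 equalled that of the list. Intervals cover the counting error of the IP fragments only and leave out that of the background. The summit is by definition the highest point of its peak. Each of the 70 words of 32 bases within 50 bp of each of the 8 summits occurred once in the genome.

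**Figure D3:**
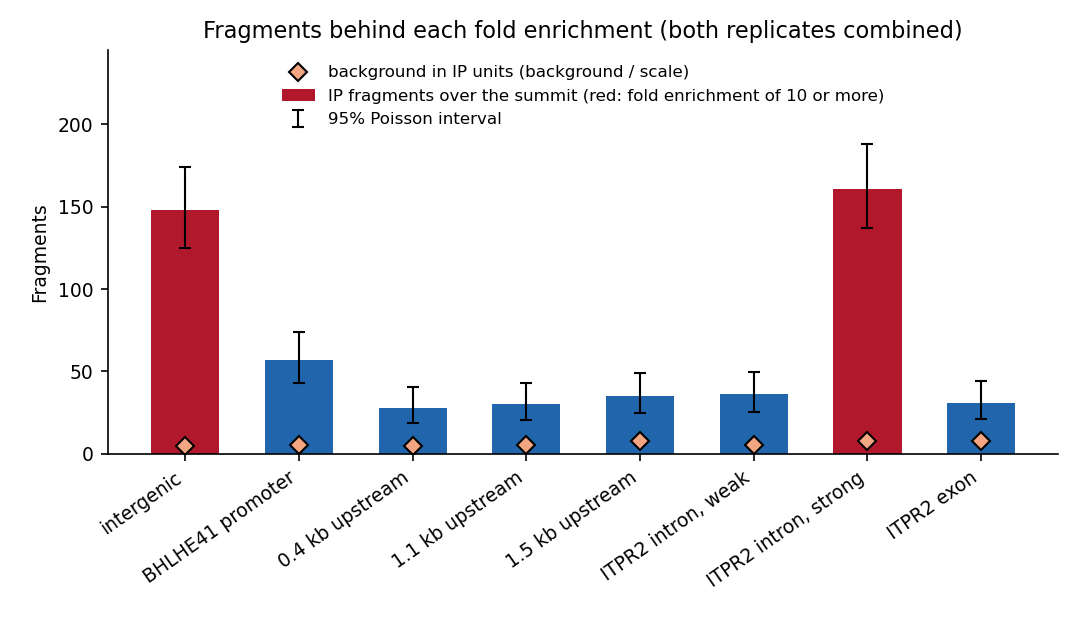
IP fragments over each summit (bars, both replicates combined) with 95% Poisson intervals, and the background converted to IP units (diamonds), for the 8 locus peaks in chromosomal order. Bars at the intergenic (148) and strong ITPR2 (161) summits overlap in their intervals and exceed the 28 to 57 fragments of the other 6.

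E-boxes divided the locus differently from strength. CACGTG lay within 50 bp of the summit at 3 of 8 peaks, compared with 47.8% of the list: the intergenic site, the BHLHE41 promoter and the ITPR2 exon. At the promoter the single E-box was centred at −7.5 bp from the summit. A RefSeq promoter of BHLHE41 (GRCh38, 250 bases before to 50 after the start) held CACGTG, as did 7.26% of 35116 such promoters. Only 1 copy lies within 500 bp of the BHLHE41 start site in hg19, so this is presumably the same E-box. Both SSPN promoters in that table lacked it. At the intergenic site E-boxes were centred 10.5 and 48.5 bp from the summit, with a further one at −524.5 bp (left of the summit on the plus strand) and 2 copies of CACGTT farther out, so that the peak held 3 copies of CACGTG in all. In the ITPR2 exon the E-box was centred at −46.5 bp from a weak summit. None of the 8 windows held 2 complete copies within 50 bp, as 4.63% of the list did.

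The strong ITPR2 summit had no CACGTG within 50 bp. Its nearest copy was centred at −160.5 bp, still inside the peak. Of the 24 peaks at or above its fold enrichment, 9 had no CACGTG within 50 bp, 8 had none within 100 bp and 4 had none within 500 bp. Directly at the summit lay 2 copies of the variant hexamer CACATG, centred at −14.5 and −2.5 bp, and the peak held 2 more. This variant was singled out after the sequences were seen. It lay within 50 bp of 10.98% of all summits (280) and of 3 locus summits, the intergenic site and the ITPR2 exon being the others. 2 or more copies together with no CACGTG occurred at 1.098% of the list (28 summits), among them the strong ITPR2 site.

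**Figure D4:**
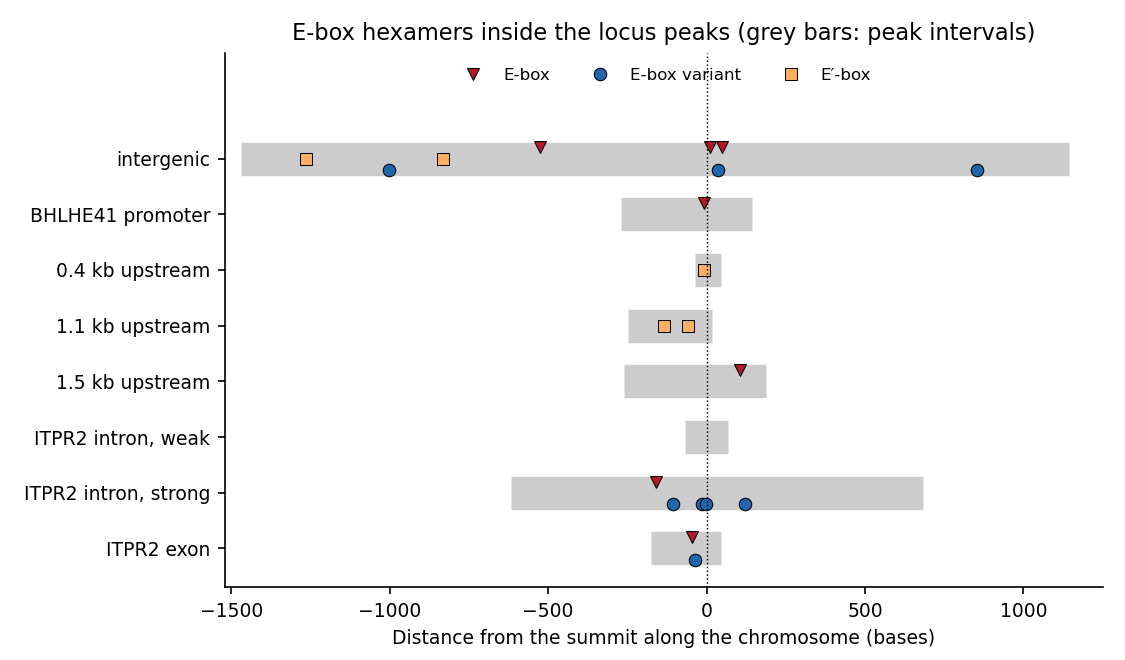
Positions of E-box hexamers (red triangle, CACGTG; blue circle, the variant CACATG; orange square, the E′-box CACGTT; either strand) along each locus peak, in bases from the summit, with grey bars for the peak intervals. The promoter E-box sits at −7.5 bp from its summit, and the weak intronic peak holds none of the 3 hexamers. The strong ITPR2 peak has copies of the variant at −14.5 and −2.5 bp and its E-box at −160.5 bp.

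Paired hexamers recurred at the leading sites. In the strong ITPR2 peak the copies of CACATG at the summit were separated by 6 bases, and in the intergenic peak CATGTG and CACGTG were also separated by 6 bases, with 12 bases from start to start in each case. Tandem E-boxes with a short spacer are a known arrangement in clock gene promoters. Such a spacing between any of the 3 hexamers was present within 100 bp of 28 of 2549 summits (1.098%), and of 1 and 3 windows placed 1000 bp to the left and right. It was not singular among spacings, since 11 bases from start to start, the arrangement in the ITPR2 exon, was present at 25 summits and 16 bases at 22. With 2 sites at the locus no statement beyond this description can be drawn.

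The remaining peaks held few of these elements. The summit 357 bp upstream of BHLHE41 had a CACGTT centred at −9.5 bp, as 6.63% of summits did within 50 bp. The peak 1080 bp upstream held 2 copies of CACGTT at −58.5 and −134.5 bp from its summit, and the peak 1454 bp upstream an E-box at 105.5 bp. The weak intronic companion held none of the 3 hexamers. The GC box GGGCGG was present at 3 summits, the intergenic site, the promoter and the peak 1454 bp upstream (27.03% of the list). No locus summit had a match within 50 bp, on either strand, to the forkhead motif TGTTTAC (2.39% of the list), the AP-1 motif TGANTCA (2.51%), the androgen response element (0.235%) or the CTCF motif (0.118%). Over the 900 kb, CACGTG occurred 71 times, or 7.89 per 100 kb against 9.65 on the chromosomes as a whole. Of these, 7 (9.86%) lay inside a peak, whereas 0.682% of copies did so genome-wide. The locus was picked with its peaks known and held 8.89 peaks per Mb, against 0.823 over the list. A higher share was therefore built into that choice and does not show how readily an E-box is bound here.

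Base composition separated the leading sites. Within 100 bp on each side of the summit, the intergenic site had a GC content of 75.1% and an observed-to-expected CpG ratio of 1.02, above the medians of 68.2% and 0.806 for the 1650 summits within 1 kb of a TSS. Among the 563 summits over 5 kb from a TSS, 12 reached that GC content. The strong ITPR2 site had 47.8% GC and a CpG ratio of 0.350, near the medians of 51.7% and 0.368 for summits over 10 kb from a TSS. The BHLHE41 promoter resembled the intergenic site (73.6%, 0.867), and the weak intronic companion had the lowest GC content of the locus at 36.3%.

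Other clock genes were examined in the same way, counting summits within 450 kb of a TSS. A summit no more than 5 kb from a TSS was found for 16 of 25 genes, and BHLHE41 had 7 summits within 450 kb, a number matched or exceeded by PER1 (21), NR1D1 (13) and CSNK1D (13). Within 450 kb, BHLHE41 was the only one of the 25 with 2 peaks of fold enrichment 10 or more located over 5 kb from its own TSS, and 5 genes had at least 1. The count of 2 includes the strong ITPR2 peak, and within 100 kb, a distance chosen after the data were seen, BHLHE41 had 1 such peak, as did CSNK1D. By nearest TSS of any transcript of a protein-coding gene, coding or not, these strong peaks belonged to SSPN and ITPR2. By the same measure BHLHE41 was the nearest for 4 of its 7 summits. Summits on both sides of the 5 kb limit were present for 14 genes, and the stronger lay beyond 5 kb for 3: BHLHE41 (23.2 against 7.99), TIMELESS (14.1 against 6.05) and TEF (15.6 against 15.2). PER2 (22.8 within 5 kb against 9.49 beyond) and PER3 (17.8 against 9.13) showed the opposite order. BHLHE40, the paralogue of BHLHE41, had 4 summits with 10.2 at its promoter and 8.13 beyond. PER1, NR1D1, NR1D2 (4 summits), CRY1 (3), CRY2 (5), HLF (5) and CIART (5) likewise had the stronger peak within 5 kb. CSNK1D was likewise the nearest protein-coding gene for 1 of its 13 summits. BMAL2, the BMAL1 paralogue on chromosome 12 that lies 1208 kb from BHLHE41, had 0 summits within 450 kb, and the nearest was 733561 bp away in ITPR2.

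**Figure D5:**
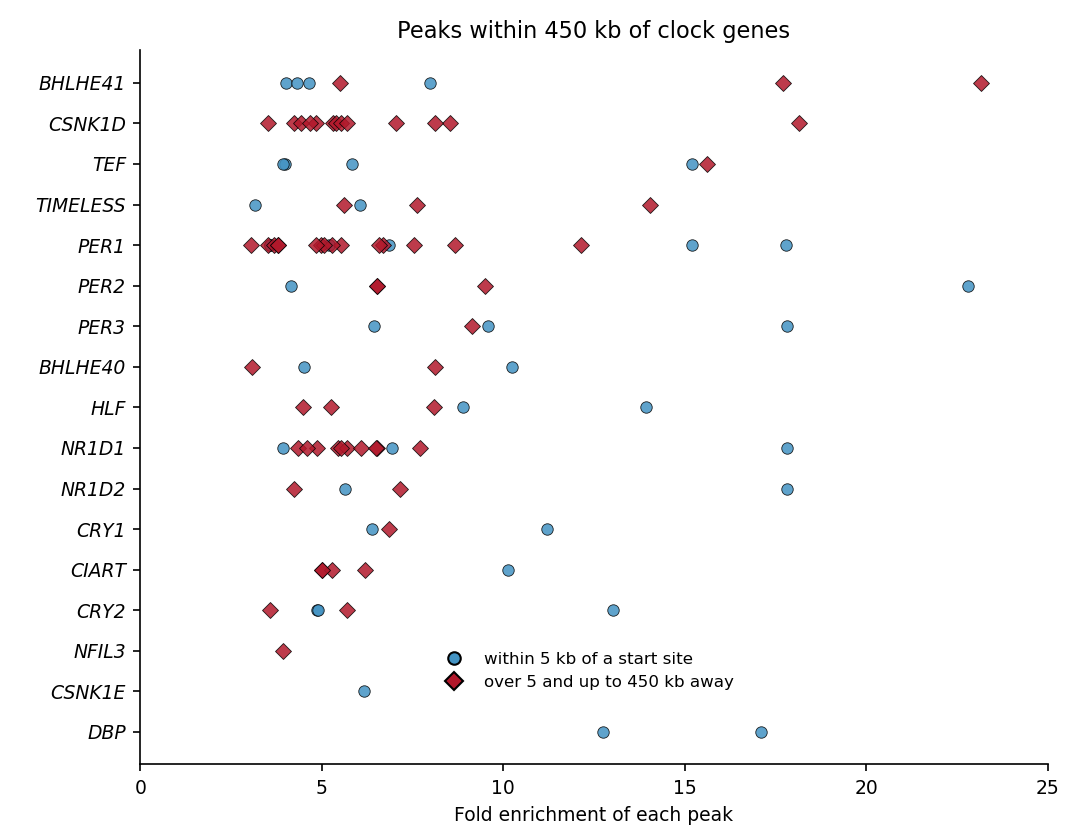
Fold enrichment of every peak within 450 kb of a start site (horizontal axis) for 17 of the clock genes with at least 1 such peak, as blue circles within 5 kb and red diamonds beyond, ordered by the strongest distal peak. BHLHE41, at the top, has red diamonds at 23.2 and 17.7 and no blue circle above 7.99, whereas PER2 and PER3 have their strongest peak as a blue circle.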

How the data were processed

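CRY1 ChIP-seq was performed in C4-2 cells with 2 IP libraries and 1 input. Per the study's methods, reads were aligned by the authors to hg19 with bowtie2 and peaks called with MACS2 on combined replicates at q < 0.05; duplicate handling and region filters were not given in the sources used here. The deposited list gives, for each peak, coordinates, a summit offset, a score (the whole part of 10 times −log10 q for all 2551 peaks), a linear fold ratio over background, and −log10 p and −log10 q. Samples were grouped by title.

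Positions were compared with GRCh37 and GENCODE release 44 mapped to it; 0 peaks ran past a chromosome end, and 2 peaks on unplaced contigs were left out of all comparisons with the list. Motifs on either strand were searched within 50 bp of the summit. IP fragments (k) and background (b) were solved per peak from the 2 equations used by the caller: the fold ratio as (sk + 1)/(b + 1), and p as the Poisson probability of exceeding the whole part of sk. The scale s was 0.5434 and the fragment length 83 bp, equal to the shortest peak. A solution needed k within 0.01 of a whole number and b within 0.0001 of a value a control can give (whole fragments, reads of 1 or 10 kb windows, or the genome average of 2.2338). With the default human genome size of the caller, which is presumed, these values imply 72.7 M control and 133.7 M IP reads. The routine was tested on simulated data with known answers. Exact Poisson intervals are at 95%. Reads extended to 83 bp count once per fragment, so pileups and widths depend on that length. It is shorter than the shearing range in the study's methods, and the reason cannot be told from the list.

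The members, gene list and motifs were chosen with earlier results of these data known, and no test was run. Genes were named where they are BHLHE41, SSPN or ITPR2, hold a locus summit or have the TSS nearest to one, or belong to a list of 25 clock genes with at least 3 summits within 450 kb, with BMAL2 for its place; 1 gene of that list is counted but not reported here. Sequences were printed for the 5 peaks with the highest fold enrichment and any other with CACGTG within 50 bp. Python 3.11.15, SciPy 1.17.1 and pyfaidx 0.9.0.4 were used. Alternatives were other thresholds, bounds, windows, transcript sets and distances.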

Additional observations from a re-analysis of the deposited data

How the results depend on the processing

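No paired analysis was possible because the peaks come from 1 list called on combined replicates and the input is a single library, and no replicate could be left out for the same reason. Restricting the list to q < 0.01, or moving the bounds of the locus by 100 kb either way, left the number of peaks and each locus median and count as they were. With fold enrichment of at least 5, 4 peaks were left, with a median fold enrichment of 12.8, −log10 q of 46.2, width of 856 bp and spacing of 10600 bp. Merging peaks within 1 kb left 5, spaced by a median of 42900 bp. Peaks with CACGTG were 7 within 500 bp of the summit (87.5%, against 75.6% of the list) and 5 over whole intervals (62.5%, against 57.4%). They were 1 within 50 bp of the midpoint. Within 50 bp of the summit the share was 37.5%, against 47.8%. With 8 peaks, each of the 3 shares set against the list lay within 1 peak of it, so no direction is read from them. Beyond 50 kb from any TSS lay 0 summits. List values for the midpoint, 50 kb and fold enrichment settings are not given here, so those shifts cannot be called particular to the locus. The clock genes with at least as many summits as BHLHE41, itself included, were 4, and became 7 within 1 Mb and 11 with peaks merged. The midpoint setting moves the centre of the window away from the summit, and the other changes follow from counting fewer peaks or another distance. One background for all peaks, tried after seeing the data, gave a median fold enrichment of 6.27. It placed the strong ITPR2 peak 13th and the intergenic peak 19th. These are the ranks by IP fragments again, since a shared divisor cannot change that order. The counting intervals of the 5 summits with the fewest fragments overlap one another, so their order is not resolved.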
